A study of Mus musculus with 16 samples.

Results

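Natural killer (NK) cells were taken from single-cell RNA profiles of CD45-enriched cells of B16 melanomas. A barcode counted as an NK cell when its unique molecular identifiers (UMIs, each a counted transcript) included at least 2 from Ncr1, Klrb1c and Klre1 together, none from Cd3d, Cd3e, Cd8a, Cd8b1 or Cd4, and at most 5 from C1qa, C1qb and C1qc. Barcodes also needed at least 200 genes and at most 10% mitochondrial UMIs. The rule selected 2363 of 99357 passing barcodes, or 2.38%, out of 116552 deposited barcodes. The members were thus chosen by the UMIs of 11 genes, whose levels are a description and were not tested.

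C57BL/6J mice carried subcutaneous tumours grown from the Bro4.1 line of B16, a mouse melanoma line, that were either control or B2m-null. The product of B2m is the beta-2-microglobulin chain of MHC class I. Anti-CD40, or a rat IgG2a isotype control, was injected intraperitoneally at 100 µg a dose on days 6, 9 and 12, before collection of the tumours on day 14. The sample labels attach the B2m genotype to the animal and the design text to the implanted cells, and the latter was followed. The 4 groups were control tumours under isotype (5 mice in 2 pools), control tumours under CD40 (2 mice in 1 pool, run on 2 lanes that the labels call technical replicates), B2m-null tumours under isotype (5 mice in 2 pools) and B2m-null tumours under CD40 (4 mice in 2 pools). A mouse is a hashtag antibody within a pool, counted from the deposited feature lists, which hold 3 hashtags in pool 1 of each isotype group and 2 in the other pools, whereas the labels list 3 for every pool. The labels do not say whether the line is 1 clone, and the ages and sexes of the mice are not used here.

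NK cells are innate lymphocytes that kill target cells by releasing perforin and granzymes from granules. Activating receptors such as NKp46, encoded by Ncr1, and NKG2D, encoded by Klrk1, promote killing, whereas inhibitory Ly49 receptors and CD94-NKG2A bind MHC class I and hold it back. Cells that lack MHC class I are therefore a classical target of NK cells. CD40 is a receptor of B cells, dendritic cells and macrophages, and its agonists act first on those cells.

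The selected cells carried the genes of NK cells that the rule did not use. Gzma, which encodes granzyme A, had at least 1 UMI in 79.3% of NK-gate cells (95% Wilson interval 77.6% to 80.9%), in 19.6% of cells of a CD8 T gate and in 5.56% of all other passing cells. Eomes, a T-box transcription factor of NK cells, was seen in 32.7%, 20.8% and 3.75% of the same sets. Klrk1, Klrd1, Prf1, Il2rb and Txk were also seen in a larger share of NK-gate cells than of either other set. Tyrobp, an adaptor of activating receptors, was seen in 86.7% of NK-gate, 20.4% of CD8 T-gate and 76.8% of all other passing cells. Fcer1g, a further such adaptor, was seen in 89.6%, 26.7% and 80.6% in that order, so both adaptors were common in the other cells. Nkg7, a granule membrane protein, was seen in 84.0%, 93.4% and 20.5%, and so was more common in the CD8 T gate. The median depth was 1660 UMIs in NK-gate cells, 2685.5 in the 10438 CD8 T-gate cells and 3191.5 in the others, so the NK shares came from the shallowest cells. The shares of T cell transcripts differed widely. Cd5 was seen in 0.635% of NK-gate cells, Cd6 in 0.804%, Trac in 4.44% and Cd3g in 5.42%, against 20.8%, 30.9%, 75.9% and 77.2% of CD8 T-gate cells. Trbc1 was seen in 43.8% of NK-gate and 54.3% of CD8 T-gate cells, Trbc2 in 25.5% and 83.3% and Cd28 in 23.4% and 70.7%. Trdc, the constant gene of the delta T cell receptor chain, was seen in 7.45% of NK-gate, 0.920% of CD8 T-gate and 0.970% of all other passing cells. Intervals and shares cover counting error only. The rule does not separate NK cells from group 1 innate lymphoid cells, which also carry Ncr1 and Klrb1c. Itga1, a marker of those lymphoid cells, was seen in 11.1% of NK-gate, 9.56% of CD8 T-gate and 6.27% of all other passing cells. Its share in the NK gate is thus not a count of such cells.

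At the edge of the rule, the 765 cells with exactly 2 UMIs of the 3 defining genes held 3811 CPM of Gzma (counts scaled to a common total), the 1598 cells with 3 or more held 5050 CPM, and the 1192 cells with exactly 1, which fell outside, held 1784 CPM. Cells outside with 6 or more C1q UMIs numbered 365, had a median of 9354 UMIs and held 1324 CPM of Gzma. These values describe the rule and are not a test.

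The NK-gate cells held 500 to 44309 UMIs each. A mouse was assigned to 1889 of them, and 15 mice had at least 20 NK-gate cells and entered the gene tests, with 4 B2m-null isotype mice among them. The comparison of NK and CD8 T effects also needed 20 CD8 T-gate cells per mouse and used 14 mice. It left out a B2m-null isotype mouse of pool 1 with 11 CD8 T-gate cells. No hashtag could be assigned to 53.3% of NK-gate cells in B2m-null isotype pool 1 and 42.1% in B2m-null CD40 pool 1, against 1.80% to 9.58% in the other pools. At most 92 barcodes were shared between any 2 lanes. Mice of a pool shared a lane, and p-values over mice take them as independent samples.

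The share of NK cells did not differ between groups past the test, and it varied widely between mice. Their share of a mouse's passing cells was 5.69%, 4.90%, 2.31%, 2.88% and 4.12% in control tumours under isotype (mean 3.98% ± 1.40, SD, n = 5). It was 2.64% and 0.819% in control tumours under CD40 (1.73% ± 1.29, n = 2). In B2m-null tumours it was 0.870%, 1.76%, 1.45%, 5.45% and 2.41% under isotype (2.39% ± 1.80, n = 5) and 2.63%, 1.75%, 1.36% and 1.90% under CD40 (1.91% ± 0.530, n = 4). The groups overlapped in each of the 4 comparisons. In exact two-sided permutation tests over mice the adjusted p-values over the 4 comparisons were 0.381 for CD40 in control tumours, 0.933 for CD40 in B2m-null tumours, 0.381 for genotype under isotype and 0.933 for genotype under CD40. The 2 control CD40 mice could not have given a p below 0.0952 against isotype. A narrower base took the NK-gate cells and all passing barcodes with a Cd3d or Cd3e UMI, and not all lymphoid cells. Of these, NK cells were 17.9%, 24.5%, 12.0%, 14.9% and 18.6% under isotype and 6.11% and 1.69% under CD40 in control tumours, with no overlap. In B2m-null tumours they were 8.94%, 15.3%, 11.6%, 21.2% and 19.7% under isotype and 13.5%, 5.10%, 2.54% and 4.25% under CD40, with overlap. The mean differences of -13.7 and -9.00 points each had an adjusted p of 0.190 by the exact permutation test. A share of cells depends on how many cells of other kinds were captured, and fewer NK cells and more of the others cannot be told apart.

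**Figure D1:**
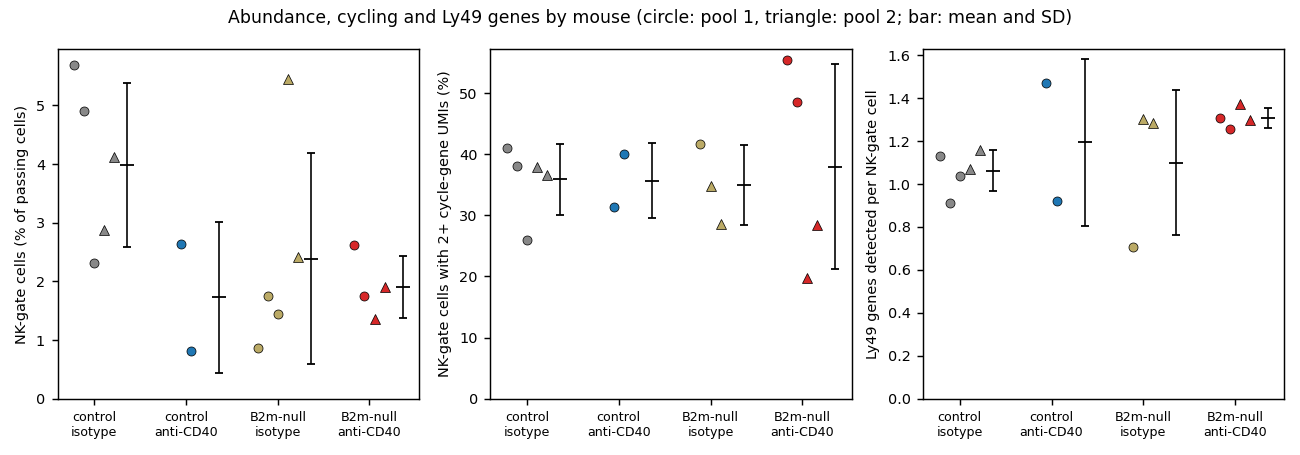
Share of NK-gate cells among passing cells, share of NK-gate cells with at least 2 UMIs of cell-cycle genes, and number of Ly49 genes detected per NK-gate cell, with 1 point per mouse in the 4 groups. Circles are mice of pool 1 and triangles of pool 2, and the bar beside each group gives its mean and SD. The groups of each tested pair overlap in all 3 panels, and the circles of the B2m-null CD40 group, 55.4% and 48.5%, lie above its triangles in the cycling panel.

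The test of the share of cycling NK cells could not pass in any comparison, whatever the values. The smallest possible exact permutation p was 0.0952 for CD40 in control tumours and 0.0571 for CD40 in B2m-null tumours. It was 0.0357 for genotype under isotype and 0.133 for genotype under CD40. These are too high to pass after adjustment over the 4 comparisons. After each cell was thinned to 1000 UMIs, 35.9% ± 5.81 (SD, n = 5) of NK-gate cells held at least 2 UMIs of S- and G2/M-phase genes in control isotype mice and 35.7% ± 6.15 (n = 2) in control CD40 mice. The values were 41.7%, 34.8% and 28.6% (SD 6.55, n = 3) in B2m-null isotype and 38.0% ± 16.7 (n = 4) in B2m-null CD40 mice. All 4 comparisons gave an adjusted p of 0.952 by the exact permutation test. Within the B2m-null CD40 group the 2 mice of pool 1 had 55.4% and 48.5%, and the 2 mice of pool 2 had 19.8% and 28.4%. Mki67, a marker of dividing cells, had 255 and 192 CPM in pool 1 and 47.7 and 79.2 CPM in pool 2. It is among the G2/M-phase genes counted for the share, so its split is part of the same values.

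Under anti-CD40, 6 of 17 granule genes, Klrg1 and Ly6c2 were higher in NK cells of B2m-null tumours, in a comparison with 2 pools a group. UMIs of the NK-gate cells were summed per mouse and tested with edgeR. Of 5786 genes tested, 136 were higher and 73 lower under CD40 at an adjusted p under 0.05, which is 3.61% of the genes (2.35% higher and 1.26% lower). The same test in control tumours called 139 genes higher and 43 lower, or 3.15% (2.4% and 0.743%). The control CD40 group was 1 pool, so there the treatment and the pool cannot be told apart. The 2 comparisons use different mice, and 33 genes were called in both in the same direction, 26 of them higher, which is 18.1% of the calls in control and 15.8% of those in B2m-null tumours. A further gene was called in opposite directions. Without control isotype lane 1 the control comparison called 27 genes, and without either CD40 mouse 38 and 53. Without B2m-null isotype lane 1 the B2m-null comparison called 89, and without its CD40 lane 2 it called 101. The median log2 change over all genes tested was -0.03 in control and -0.01 in B2m-null tumours.

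Klrg1, which encodes an inhibitory receptor for cadherins carried by mature and activated NK cells, was raised in every CD40 mouse. In B2m-null tumours it had 29.8, 16.6, 31.7 and 20.6 CPM under isotype and 301, 234, 172 and 277 CPM under CD40. The B2m-null isotype mice of pool 1, given first, had 21 and 29 NK-gate cells with 33559 and 120669 UMIs in all. Low CPM values of those mice, here and below, therefore rest on few UMIs. In control tumours Klrg1 had 32.5, 11.8, 46.0, 16.6 and 47.5 CPM under isotype and 214 and 139 CPM under CD40. No CD40 mouse overlapped an isotype mouse. The log2 change was 3.30 (SE 0.35, adjusted p = 1.22e-05) in B2m-null and 2.68 (SE 0.34, adjusted p = 5.85e-05) in control tumours.

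Of 17 granule genes tested, 6 were higher and none lower in B2m-null tumours, with a median log2 change of 1.76 over the list beside -0.01 over all genes tested, of which 2.35% were higher. In control tumours 2 of 17 were higher, with a median of 1.14, beside 2.4% of all genes tested. Gzma had 1877, 1815, 3352 and 3211 CPM under isotype and 10185, 11057, 6801 and 11645 CPM under CD40 in B2m-null tumours, a log2 change of 2.10 (SE 0.25, adjusted p = 0.000216). In control tumours it had 3397, 3289, 4223, 3452 and 3615 CPM under isotype and 9170 and 5349 CPM under CD40 (log2 change 1.14, SE 0.27, adjusted p = 0.0272). The control call was lost when cells were thinned to 1000 UMIs, and it held in 15 of 23 fits without 1 mouse or pool (adjusted p up to 0.595). Such fits, here and below, left out a mouse or lane of any of the 4 groups, so many kept both compared groups whole. The lowest CD40 mouse lay above the highest isotype mouse in both kinds of tumour.

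Prf1 encodes perforin, which opens the target cell membrane. It had 119, 199, 481 and 343 CPM under isotype and 1422, 1319, 704 and 1070 CPM under CD40 in B2m-null tumours, a log2 change of 1.93 (SE 0.34, adjusted p = 0.00659). Its log2 change in control tumours was 1.19 with an adjusted p of 0.0908. Nkg7, a granule membrane protein needed for degranulation, had 626, 638, 981 and 1094 CPM under isotype and 2069, 2120, 1951 and 2848 CPM under CD40 in B2m-null tumours (log2 change 1.55, SE 0.21, adjusted p = 0.000147). Groups did not overlap for either gene. Gzmb, encoding granzyme B, rose by 1.76 on the log2 scale in B2m-null tumours (adjusted p = 0.0231), from 328, 365, 833 and 495 CPM to 2661, 1516, 935 and 1531 CPM. Srgn, the proteoglycan core that packs granules, rose by 0.74 (adjusted p = 0.00818), a call lost when each pool was summed as 1 sample (the pool as the unit) and in a stricter gate, with at least 3 UMIs of the 3 defining genes and no Cd3g or C1q UMI. The Gzmb call held in 17 of 23 fits without 1 mouse or pool.

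Gzmk, encoding granzyme K, was scarce. It had 0, 8.29, 2.97 and 4.13 CPM under isotype and 95.7, 22.9, 25.7 and 24.8 CPM under CD40 in B2m-null tumours (log2 change 3.48, SE 0.79, adjusted p = 0.0141), and its log2 change in control tumours was 3.03 (adjusted p = 0.0200). It was seen in 2.96% of all NK-gate cells (median 1660 UMIs a cell), 39.3% of CD8 T-gate cells and 4.44% of all other passing cells (median 3192 UMIs), so its UMIs in NK-gate cells were not shown to exceed the background. The B2m-null pools held 174 and 410 CD8 T-gate cells under isotype and 1420 and 2575 under CD40. Both Gzmk calls were lost under DESeq2. Gzma and Gzmk lie 70.6 kb apart on chromosome 13 (RefSeq, GRCm38.p6; Gzma at 113093824 to 113100981 and Gzmk at 113171630 to 113180965, both on the minus strand), and the 250 bases before their starts are shown because both genes passed the test in both kinds of tumour. They lie at chr13:113100982-113101231 for Gzma and chr13:113180966-113181215 for Gzmk. Capitals mark GGTGTGA, a core of T-box motifs, and TGTGGT, a core of RUNX motifs, each searched on both strands.
Gzma: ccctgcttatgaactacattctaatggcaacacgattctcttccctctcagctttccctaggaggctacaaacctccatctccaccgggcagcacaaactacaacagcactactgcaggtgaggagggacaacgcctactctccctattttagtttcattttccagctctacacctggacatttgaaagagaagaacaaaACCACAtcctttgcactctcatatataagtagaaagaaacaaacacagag
Gzmk: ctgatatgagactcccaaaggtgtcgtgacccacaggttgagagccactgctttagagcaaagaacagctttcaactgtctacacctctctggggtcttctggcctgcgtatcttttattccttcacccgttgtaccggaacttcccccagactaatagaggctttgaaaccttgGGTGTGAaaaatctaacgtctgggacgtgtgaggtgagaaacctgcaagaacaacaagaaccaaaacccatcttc
The Gzma stretch held 1 RUNX core starting 50 bases before the start, and the Gzmk stretch 1 T-box core starting 75 bases before it. Among 32851 RefSeq stretches of the same length, 3.33% held the T-box core and 14.0% the RUNX core. A match of letters describes the sequence and is not a binding site.

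The neighbouring granzymes Gzmf and Gzmg on chromosome 14 varied widely between mice. Gzmg had 0, 8.29, 0.99 and 0 CPM under isotype and 0, 0, 0 and 4443 CPM under CD40 in B2m-null tumours, so 1 mouse of 4 carried its UMIs. Gzmf had 0 CPM in all 4 isotype mice and at most 32.0 CPM in 3 of the CD40 mice, with 2110 CPM in the same mouse that was high for Gzmg. In control tumours under CD40 the 2 mice had 360 and 397 CPM of Gzmf and 143 and 607 CPM of Gzmg. Neither gene passed the test in either comparison (adjusted p = 0.182 and 0.117 in B2m-null tumours, 0.267 and 0.175 in control tumours).

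**Figure D2:**
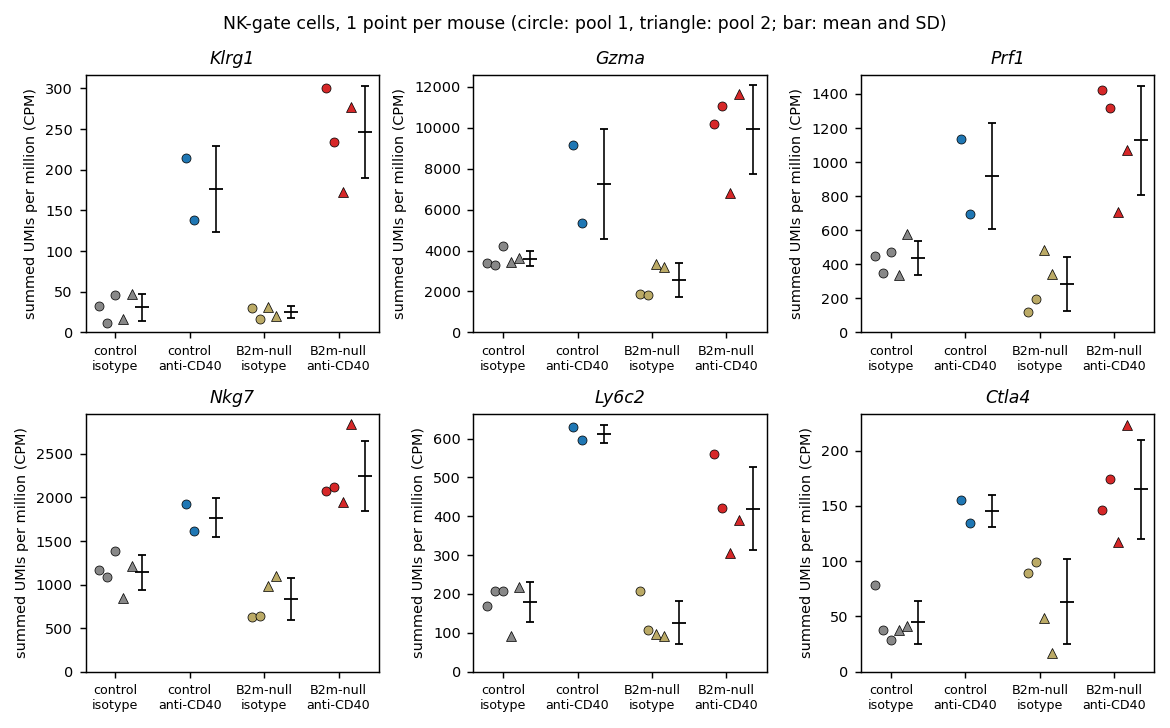
Level of 6 genes in the summed NK-gate cells of each mouse, in CPM, in the 4 groups. Circles are mice of pool 1 and triangles of pool 2, and the bar gives mean and SD. All CD40 mice lie above all isotype mice for Klrg1, Gzma, Prf1, Nkg7, Ly6c2 and Ctla4.

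Ly6c2, a surface protein that rises on mature and stimulated NK cells, had 209, 108, 96.1 and 90.8 CPM under isotype and 561, 421, 304 and 391 CPM under CD40 in B2m-null tumours (log2 change 2.13, SE 0.26, adjusted p = 3.92e-05). In control tumours it had 168, 208, 207, 92.4 and 218 CPM under isotype and 629 and 596 CPM under CD40 (log2 change 1.90, SE 0.24, adjusted p = 5.42e-05). The groups did not overlap in either kind of tumour.

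Cxcr6, a chemokine receptor of tissue lymphocytes, had 0, 16.6, 43.6 and 28.9 CPM under isotype and 72.9, 160, 114 and 144 CPM under CD40 in B2m-null tumours (log2 change 1.97, SE 0.41, adjusted p = 0.0101), and its log2 change in control tumours was 3.19 (SE 0.44, adjusted p = 0.000288). Itga1, which encodes the collagen-binding CD49a, rose by 1.29 and 1.83 in the same order (adjusted p = 0.0196 and 0.000557). Its B2m-null call was lost under DESeq2, with the pool as the unit, in the stricter gate and after thinning, and its control call after thinning. Both Cxcr6 calls were lost in the stricter gate and the B2m-null one also after thinning. Rgs1, which dampens chemokine receptor signals, rose by 1.29 and 1.39 (adjusted p = 0.000441 and 0.000291). These 3 were the called members of the 14 tested genes of tissue residence, whose median log2 change was -0.13 in B2m-null and 0.03 in control tumours (2.35% and 2.4% of all genes tested were higher). S100a6, a calcium-binding protein, had 1099, 1436, 1477, 1095 and 1621 CPM under isotype and 5807 and 4806 CPM under CD40 in control tumours (log2 change 2.09, SE 0.20, adjusted p = 9.02e-07).

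Of 22 activating receptors and adaptors, 3 were higher in B2m-null tumours (list median 0.46, with 2.35% of all genes tested higher), namely Tyrobp (log2 change 0.98, adjusted p = 0.00166), Fcer1g (0.71, adjusted p = 0.0114) and Sh2d1a (0.98, adjusted p = 0.0239). Tyrobp and Fcer1g pass signals from activating receptors, and Sh2d1a from SLAM-family receptors. Klrk1 changed by 0.07 (adjusted p = 0.953). In control tumours Tyrobp (0.69, adjusted p = 0.0477) and Hcst, the adaptor of NKG2D, were called (list median 0.25, with 2.4% of all genes tested higher). Hcst had 225, 194, 213, 213 and 294 CPM under isotype and 804 and 820 CPM under CD40 in control tumours (log2 change 1.94, adjusted p = 0.00180), but 268, 191, 375 and 495 CPM against 210, 298, 448 and 550 CPM in B2m-null tumours (log2 change 0.27, adjusted p = 0.688). The calls of Tyrobp, Fcer1g and Sh2d1a in B2m-null tumours and of Tyrobp and Hcst in control tumours were lost with the pool as the unit. The Tyrobp call in control tumours was also lost with at least 10 cells per mouse, with no filter on low counts and after thinning, and held in 11 of 23 fits without 1 mouse or pool (adjusted p up to 0.608). Sh2d1a was also lost in the stricter gate and after thinning, and Fcer1g in the stricter gate. None of the 10 genes tested from a list of inhibitory receptors passed in either comparison, with median log2 changes of 0.68 and 0.36 in B2m-null and control tumours. The list held inhibitory Ly49 and CD94-NKG2A genes and others, such as Klrb1b and Pilra, so not all of its members are receptors for MHC class I.

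Of 9 checkpoint genes, 3 were higher in B2m-null tumours (list median 0.73, with 2.35% of all genes tested higher) and 2 in control tumours (list median 0.36, with 2.4% higher), Klrg1 among them. Ctla4, an inhibitory receptor best known on T cells, had 89.4, 99.5, 48.5 and 16.5 CPM under isotype and 146, 174, 117 and 223 CPM under CD40 in B2m-null tumours (log2 change 1.84, adjusted p = 0.00659), and its change in control tumours was 1.74 (adjusted p = 0.00751). Tnfrsf9, the costimulatory receptor 4-1BB, rose by 1.53 in B2m-null tumours (adjusted p = 0.0310) and had a log2 change of 1.41 in control tumours (adjusted p = 0.0621). The Tnfrsf9 call in B2m-null tumours was lost under limma-voom and in the stricter gate (adjusted p = 0.406) and held in 13 of 23 fits without 1 mouse or pool, and both Ctla4 calls were lost after thinning and in the stricter gate.

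Secreted effectors did not pass. None of 13 was called in either comparison. Ifng, encoding interferon-gamma, had 119, 66.3, 131 and 103 CPM under isotype and 342, 229, 121 and 515 CPM under CD40 in B2m-null tumours (log2 change 1.61, adjusted p = 0.0590). Ccl5, a chemokine that draws T cells and myeloid cells, split by pool, with 2876 and 4377 CPM in B2m-null CD40 pool 1 and 13319 and 15444 CPM in pool 2 (adjusted p = 0.0986). Il12rb1, a chain of the interleukin-12 receptor, rose by 1.80 in B2m-null tumours (adjusted p = 0.0283), and Socs2, a feedback inhibitor of cytokine signals, fell by 3.41 on the log2 scale (adjusted p = 0.0118). They were 1 higher and 1 lower of 21 genes of cytokine receptors and signalling (list median 0.11), where 2.35% and 1.26% of all genes tested were called. Both calls were lost under DESeq2, limma-voom and the pool as the unit.

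Of 24 interferon-gamma and MHC class I genes, 7 were higher and none lower in B2m-null tumours (list median 0.58, with 2.35% of all genes tested higher), and 4 were higher in control tumours (list median 0.38, with 2.4% higher). H2-D1, a classical class I heavy chain, had 1430, 1483, 1784 and 1775 CPM under isotype and 2784, 2436, 3224 and 2566 CPM under CD40 in B2m-null tumours (log2 change 0.92, adjusted p = 0.00114). H2-K1 rose by 0.77 in B2m-null and by 0.60 in control tumours on the log2 scale (adjusted p = 0.00242 and 0.0344). The H2-D1 and H2-K1 calls in B2m-null tumours were lost with the pool as the unit and in the stricter gate (adjusted p = 0.115 and 0.0804 there). The H2-K1 call in control tumours held in 4 of 9 other settings and 14 of 23 fits without 1 mouse or pool, and its change was 0.27 (adjusted p = 0.332) in a gate, added after the data were seen, that limits transcripts of other cells. H2-Q7, a non-classical heavy chain, rose by 1.18 in B2m-null tumours (adjusted p = 0.000655). The class I heavy chains resemble each other, so the counting could split reads between them.

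Of 22 type I interferon-stimulated genes, 2 were lower (0.743% of all genes tested were) and none higher under CD40 in control tumours, 21 had a negative sign, and the list median was -1.51. Ifit2, an antiviral protein induced by interferon, had 66.9, 68.6, 155, 61.6 and 92.8 CPM under isotype and 6.48 and 11.2 CPM under CD40 (log2 change -3.10, adjusted p = 0.00257). Ifit3 had 26.8, 33.1, 40.2, 28.4 and 54.0 CPM under isotype and no UMI under CD40, at least 6.89-fold lower when the group is set at 3 UMIs (adjusted p = 0.0450). The Ifit3 call was lost under DESeq2, limma-voom and the pool as the unit and in 10 of 20 fits without 1 mouse or pool, and that of Ifit2 under limma-voom, thinning to 1000 UMIs and the stricter gate. In the gate added after the data were seen, neither Ifit2 nor Ifit3 was among the genes tested. Dendritic cell markers were lower in the same control CD40 mice, at 755 to 2255 against 3132 to 5550 CPM. They were also lower under CD40 in B2m-null tumours, at 664 to 3246 against 4016 to 8569 CPM. The part of these markers in the result was not tested. In B2m-null tumours no gene of the list passed and its median was -0.13, with 0, 49.7, 21.8 and 49.5 CPM of Ifit2 under isotype and 18.2, 36.6, 25.7 and 9.91 CPM under CD40. A test of whether the response of Ifit2 differed by tumour did not pass (2.79, adjusted p = 0.0983).

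Of 24 transcription factors, Id2 (0.63, adjusted p = 0.0196) and Bhlhe40 (0.75, adjusted p = 0.0196) were higher and Rel, an NF-kB subunit, was lower (-1.12, adjusted p = 0.0110) in B2m-null tumours (list median -0.02, 12 genes positive and 12 negative, with 2.35% of all genes tested higher and 1.26% lower), while Eomes had a log2 change of -0.72 (adjusted p = 0.0916). In the added gate Rel had -0.38 (adjusted p = 0.488) and Id2 0.52 (adjusted p = 0.0650). Thinning to 1000 UMIs and the stricter gate also lost both calls, and the Bhlhe40 call was lost with the pool as the unit and in the stricter gate. Pkm and Ldha, glycolytic enzymes, rose by 0.78 and 0.82 in B2m-null tumours (adjusted p = 0.0258 and 0.0381), 2 of 19 genes of glycolysis and nutrient uptake, where 2.35% of all genes tested were higher. Both calls were lost with the pool as the unit, after thinning and in the stricter gate, and that of Ldha also in the added gate (adjusted p = 0.0983). No gene of the S-phase list (16 tested) or the G2/M list (22 tested) was called in either comparison.

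**Figure D3:**
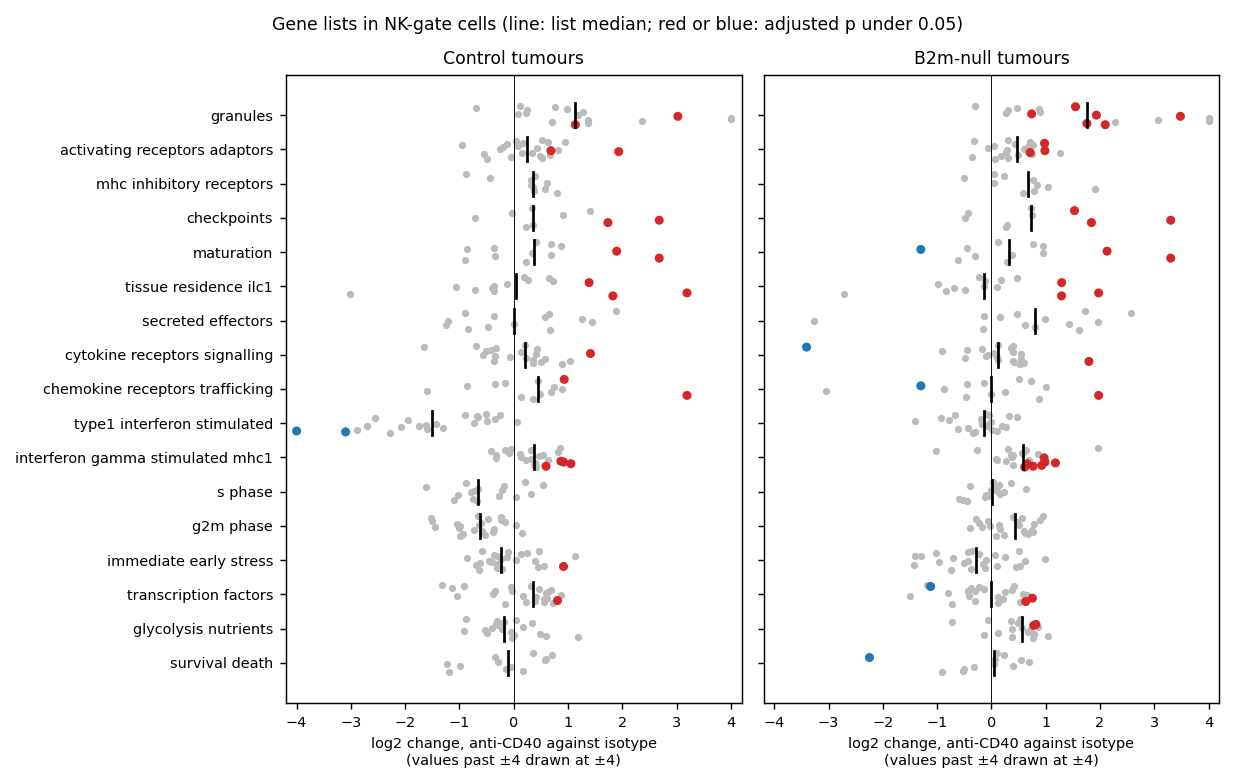
Log2 change under CD40 against isotype of each tested member of 17 gene lists, in control and B2m-null tumours. Each point is a gene, coloured when its adjusted p was under 0.05, and the line is the list median. The granule list has its median at 1.14 in control and 1.76 in B2m-null tumours, and the type I interferon list at -1.51 and -0.13.

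Markers of other cells moved with the treatment as well. Cd3g, a T cell receptor subunit that the rule left free, had 0, 16.6, 15.8 and 20.6 CPM under isotype and 50.1, 41.2, 58.7 and 109 CPM under CD40 in B2m-null tumours (log2 change 2.08, adjusted p = 0.00836), and its change in control tumours was 1.72 (adjusted p = 0.0237). The B2m-null call was lost under DESeq2 and with the pool as the unit. Its mean in the CD8 T gate was 415 to 845 CPM over the 4 groups. The 5 T-defining genes together ranged from 89.4 to 272 CPM in B2m-null isotype mice and 220 to 273 CPM in B2m-null CD40 mice. They ranged from 135 to 239 CPM in control isotype and 308 to 318 CPM in control CD40 mice. In the stricter gate Klrg1 (log2 change 3.26), Gzma (1.68), Prf1 (1.42), and Nkg7 (1.31) were still called in B2m-null tumours. Gzmb (0.91), Ly6c2 (2.18), Cxcr6 (2.03), Ctla4 (1.62) and Rgs1 (1.40) were no longer called there, and 18 genes were called in all from 1142 cells.

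Dendritic cell genes went the other way. The 12 markers of dendritic cells, Cd74 and class II genes included, summed to 4016 to 8569 CPM in B2m-null isotype and 664 to 3246 CPM in B2m-null CD40 mice, and to 3132 to 5550 CPM and 755 to 2255 CPM in the control groups, with no overlap between treatments. Flt3, Siglech and Ccr9 had no UMI in either CD40 group. The 8 lowest genes named in B2m-null tumours included Ciita, the class II transactivator (log2 change -3.23, adjusted p = 0.00166), Cd83 (-2.54, adjusted p = 0.0110) and Cd209a (-2.90, adjusted p = 0.0258), all genes of antigen-presenting cells. All 3 calls were lost under DESeq2 and limma-voom, those of Ciita and Cd83 also in the stricter gate, and that of Cd209a with the pool as the unit and in 8 of 23 fits without 1 mouse or pool. Melanocyte markers summed to 6.47 to 2983 CPM in control isotype, 9.72 to 386 CPM in control CD40, 20.8 to 2155 CPM in B2m-null isotype and 0 to 9.16 CPM in B2m-null CD40 mice. The 6 fibroblast and endothelial markers summed to 41.4 to 88.2 CPM in B2m-null isotype and 134 to 751 CPM in B2m-null CD40 mice, with no overlap, and to 66.2 to 128 and 113 to 1742 CPM in the control groups. Col1a1, a collagen gene of fibroblasts, had 3.24 and 760 CPM in the 2 control CD40 mice, so its call in control tumours rests on 1 mouse. The 6 B cell markers summed to 108 to 209 CPM in B2m-null isotype and 29.7 to 91.7 CPM in B2m-null CD40 mice, with no overlap and 5 of the 6 at 0 under CD40, and to 99.5 to 189 and 124 to 175 CPM in the control groups. The part of these transcripts in the NK results was not tested beyond a gate added after the data were seen, limited to 10 UMIs of 12 myeloid, dendritic, melanocyte, collagen and neutrophil genes. In its 1979 cells 214 genes were called in B2m-null tumours, 129 of them higher, and Klrg1 (3.19), Gzma (1.62), Prf1 (1.41) and Nkg7 (1.16) remained called. Rel, Id2, Ldha, Il12rb1, B2m and H2-Q6 were among the genes no longer called there, and H2-K1 was no longer called in control tumours.

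The effect of CD40 on Klrg1 in B2m-null tumours was compared between NK cells and CD8 T cells of the same mice. A test of the difference between the NK-gate and CD8 T-gate effects called 32 of 8496 genes in B2m-null tumours (0.377%, with 17 higher in NK cells, 0.2%, and 15 lower, 0.177%) and 199 in control tumours (2.34%, with 64 higher, 0.753%, and 135 lower, 1.59%). In B2m-null tumours the Klrg1 effect was 2.72 higher on the log2 scale in NK cells (SE 0.42, adjusted p = 0.00115), that of Cd244a, the receptor 2B4, 1.96 higher (adjusted p = 0.0223) and that of Klrb1b, an inhibitory NKR-P1 receptor, 1.93 higher (adjusted p = 0.0365). Slamf6, a SLAM-family receptor, had a difference of -3.45 (adjusted p = 0.0264). The calls of Klrg1, Cd244a, Klrb1b and Slamf6 did not hold when cells were thinned to 1000 UMIs, with adjusted p-values of 0.180, 0.188, 0.795 and 0.406 in that order. With the pool as the unit the Klrg1 difference was 2.53 (adjusted p = 0.201) and that of Slamf6 was -2.72 (adjusted p = 0.475). Without B2m-null isotype pool 2, the isotype group was 1 mouse with 21 NK-gate cells. In that fit the Klrg1 difference was 1.96, that of Klrb1b 0.65, that of Cd244a 3.52 and that of Slamf6 -4.05. The Slamf6 difference was -9.68 (adjusted p = 0.00254) without B2m-null CD40 pool 1 and -1.68 (adjusted p = 0.805) without pool 2, so its size rests on single pools. The Klrg1 difference in control tumours was 1.10 (SE 0.40, adjusted p = 0.157).

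The effect of CD40 on Prf1 and Gzmb differed between NK and CD8 T cells in control tumours, where the CD40 group was 2 mice of 1 pool. These 2 calls were not followed under other settings. Prf1 averaged 438 CPM under isotype and 917 CPM under CD40 in NK cells, and 501 and 178 CPM in CD8 T cells, a difference in effect of 2.58 (SE 0.49, adjusted p = 0.0259). Gzmb averaged 861 and 2032 CPM in NK cells and 1622 and 877 CPM in CD8 T cells (difference 2.24, SE 0.45, adjusted p = 0.0299). Gzmc, a granzyme of activated killer cells, had a difference of 4.55 (adjusted p = 0.0429), and Pdcd1, encoding PD-1, of 4.32 (adjusted p = 0.00220). The Gzmc call was lost with the pool as the unit and held in 3 of 8 fits without 1 lane, none of which left out a control CD40 mouse. The Pdcd1 call was lost after thinning (adjusted p = 0.294). Pdcd1 was rare in NK cells, at 1.96 CPM under isotype and 13.7 CPM under CD40, against 207 and 97.5 CPM in CD8 T cells. In B2m-null tumours the Prf1 and Gzmb differences were 1.77 and 1.21 and did not pass (adjusted p = 0.328 and 0.516). For Gzma the NK and CD8 T effects were not shown to differ, with differences of -0.99 in control and -0.26 in B2m-null tumours (adjusted p = 0.622 and 1.00).

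**Figure D4:**
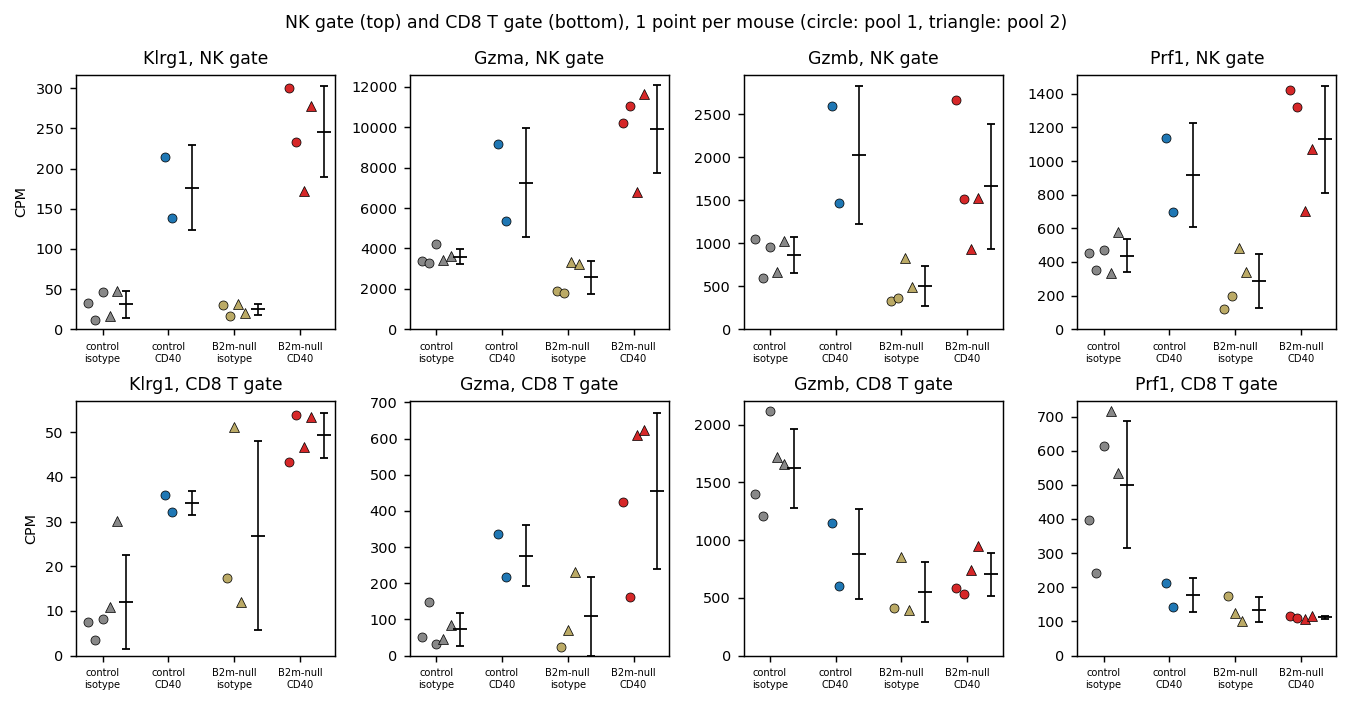
Level of Klrg1, Gzma, Gzmb and Prf1 in CPM in NK-gate cells (top) and CD8 T-gate cells (bottom) of each mouse, with scales that differ between panels. Circles are mice of pool 1, triangles of pool 2, and bars mean and SD. The CD40 mice of control tumours lie above the isotype mice for Prf1 and Gzmb in NK cells and below them in CD8 T cells.

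Under isotype no NK gene differed between B2m-null and control tumours past the threshold. By edgeR 0 of 5786 genes were called (0%), 266 had an unadjusted p under 0.05, and DESeq2 called 10 and limma-voom 1. The NK minus CD8 T test of the same comparison also called 0 of 8496 genes (0%). Klrg1 averaged 24.7 CPM ± 7.25 (SD, n = 4) with B2m-null and 30.9 CPM ± 16.4 (n = 5) with control tumours, Gzma 2564 ± 831 and 3595 ± 370 CPM, and Prf1 286 ± 160 and 438 ± 99.5 CPM. On simulated counts of 5454 genes for this comparison the test recovered 79.0% of 4-fold and 42.0% of 2-fold changes, so changes of 2-fold and less would mostly be missed.

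Ly49 receptor genes, most of whose products bind MHC class I, were compared by the number detected per cell, in tests that could not pass. The smallest possible exact permutation p-values were those given for the cycling share, too high to pass after adjustment over the 4 comparisons. At 1000 UMIs per cell an NK-gate cell showed 1.06 ± 0.0970 Ly49 genes (SD, n = 5) in control isotype, 1.19 ± 0.389 (n = 2) in control CD40, 1.10 ± 0.338 (n = 3) in B2m-null isotype and 1.31 ± 0.0474 (n = 4) in B2m-null CD40 mice. The adjusted p was 0.857 in each of the 4 exact permutation tests. Over 14 mice, Klra7 was seen in 28.7% ± 6.52 of cells, Klra4 in 27.8% ± 6.08, Klra8 in 23.9% ± 7.96, Klra9 in 13.6% ± 5.71, Klra1 in 9.24% ± 3.56 and Klra3 in 7.01% ± 3.17. Klra4 and Klra8 encode activating members of the family. The first 3 shares lay within 1 SD of each other. Of 1460 cells, 35.8% showed no Ly49 gene, 28.9% showed 1, 20.2% showed 2 and 0.479% showed 5 or more. Ly49 genes are near-identical copies, so the counting could split their reads.

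Under CD40, 23 genes differed between B2m-null and control tumours (0.398%, with 0.19% higher and 0.207% lower, 11 and 12 genes), and the response to the antibody differed between the 2 kinds of tumour for 41 genes (0.709%, with 0.328% higher and 0.38% lower, 19 and 22 genes). None was a gene of the lists. Rpl37a, a ribosomal protein, had 6390 and 5971 CPM in control CD40 mice, 2260, 2701, 2828 and 2947 CPM in B2m-null CD40 mice, and group means of 2313 and 4016 CPM in control and B2m-null isotype mice. The difference of the effects was -1.92 (adjusted p = 2.93e-05). Rps28, Rpl38, Rps29 and Rpl41, further ribosomal proteins, had differences of -1.74, -1.65, -1.51 and -1.43, and Cops6, a COP9 signalosome subunit, and Rnh1, a ribonuclease inhibitor, of 3.91 and 2.72.

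Rpl37a averaged 6342 CPM in the CD8 T cells of control CD40 mice and 2686 CPM in those of B2m-null CD40 mice, a log2 ratio of -1.24 beside -1.20 in NK cells, and -1.02 in all other cells. All 16 genes named for genotype under CD40 had the same sign in CD8 T cells and in all other cells of these mice. For CD40 in B2m-null tumours, 8 of 8 higher and 8 of 8 lower named genes also had the same sign in both. The median log2 change of the higher genes was 2.13 in NK cells by edgeR. As log2 ratios of mean CPM with 1 added, an unlike measure, the medians were 1.35 in CD8 T cells and 1.81 in the other cells. In control tumours 7 of 8 higher and 8 of 8 lower named genes had the same sign in CD8 T cells, and 8 of 8 of each in the other cells. The NK minus CD8 T test gave 0.07 for Rpl37a in control tumours (adjusted p = 0.875). The control CD40 mice came from 1 pool, so pool, treatment and genotype cannot be told apart in these comparisons. With the pool as the unit neither comparison called a gene, and without either control CD40 mouse the genotype comparison called none.

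**Figure D5:**
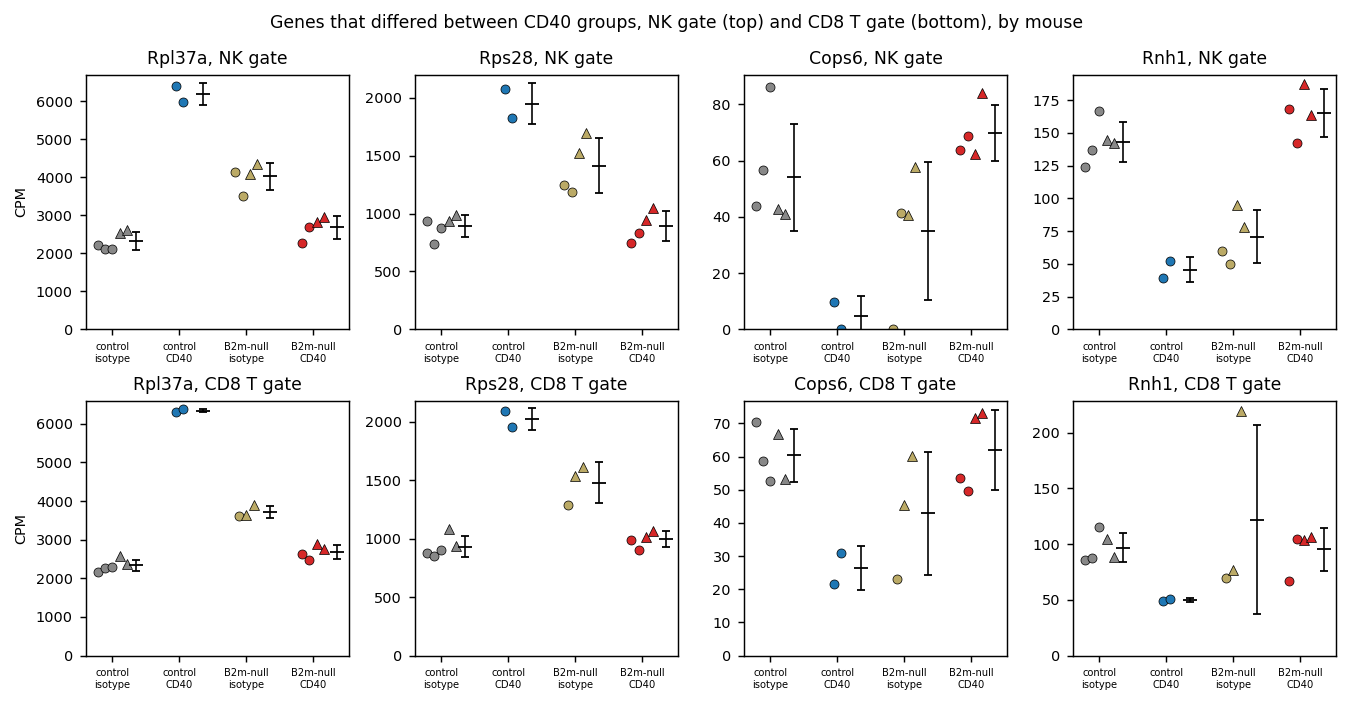
Level of Rpl37a, Rps28, Cops6 and Rnh1 in CPM in NK-gate cells (top) and CD8 T-gate cells (bottom) of each mouse. Circles are mice of pool 1, triangles of pool 2, and bars mean and SD. The 2 control CD40 mice, at 6390 and 5971 CPM of Rpl37a in NK cells, stand apart in the same direction in both kinds of cell.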

How the data were processed

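Single-cell libraries were made with 10x 3' v3 chemistry from CD45-enriched tumour cells, per the labels' protocols, and the submitters' processing notes name bcl2fastq 2.20.0.422, Cell Ranger 3.0.0 and the build mm10. The deposited values are raw UMI counts per gene and barcode, and hashtag counts, per the file headers. NK-gate counts were summed per mouse and tested with edgeR 4.0.16 (quasi-likelihood, TMM, filterByExpr, robust) in R 4.3.3 with Benjamini-Hochberg adjustment at 0.05, over all groups in 1 fit, on mice with at least 20 NK-gate cells. NK and CD8 T effects were compared with the mouse as a block. Shares were tested by exact permutation. DESeq2 1.42.0 and limma 3.58.1 (voom) were alternatives. The test was checked on simulated data. Doublets by hashtag were left out of mouse sums, and no doublet caller was run. Named genes were the 8 highest and 8 lowest called genes at 50 CPM or more, called or abundant members of the lists, and the markers. Replicate lanes and mice share numbers only. The members and gene lists were chosen with earlier results of these data known, and a gate limiting transcripts of other cells was added after seeing the data. Promoter sequences came from RefSeq, GRCm38.p6. The result of 1 further gene is not reported here.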

Additional observations from a re-analysis of the deposited data

Results flagged for a closer look

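In 85 groups of 4 or more mice that were examined for single mice far from the others, 10 stood out, and chance gives about 1 group in 20. Among B2m-null CD40 mice these were Gzmk at 95.7 CPM and Ifit3 at 41.2 CPM in mice of pool 1, and Gzmf at 2110 CPM and Gzmg at 4443 CPM in 1 mouse of pool 2. Among control isotype mice they were Gzmf at 36.7 CPM, Gzmg at 1.91 CPM and Ctla4 at 78.3 CPM, all as highest values. That group held 1 UMI of Gzmg in all. Among B2m-null isotype mice they were Gzmg at 8.29 CPM and Ly6c2 at 208.6 CPM as highest values and Ly6a at 74.3 CPM as a lowest value. The B2m-null isotype mice held 2 UMIs of Gzmg in all, and the Ly6c2 value came from a mouse with 21 NK-gate cells.

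The CD40 effect in NK cells differed between B2m-null and control tumours by edgeR for 16 named genes. It was higher in B2m-null tumours, on the log2 scale, by 3.91 for Cops6, 2.72 for Rnh1, 2.27 for Fh1, 1.94 for Adh5, 1.86 for Snrpa1, 1.84 for Dpy30, 1.82 for Ubb and 1.80 for Ndufv2. The differences were -1.92 for Rpl37a, -1.74 for Rps28, -1.67 for Cops9, -1.65 for Rpl38, -1.53 for Dpm3, -1.51 for Rps29, -1.44 for Romo1 and -1.43 for Rpl41. With the pool as the unit no gene was called.

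The CD40 effect differed between NK and CD8 T cells for 20 named genes. In control tumours the NK minus CD8 T difference was 4.55 for Gzmc, 4.32 for Pdcd1, 3.43 for C1qtnf6, 3.42 for Serpinb9b and 2.95 for 2900026A02Rik, and -5.92 for Ptgds, -4.53 for Rab38, -3.99 for Igkc, -3.70 for Syngr1 and -3.25 for Pde2a. In B2m-null tumours it was 2.72 for Klrg1, 2.32 for Gm36723, 1.96 for Cd244a, 1.93 for Klrb1b and 1.74 for Napsa, and -3.45 for Slamf6, -2.12 for Klhl6, -2.11 for Gm26740, -1.91 for Gm2682 and -1.60 for Lyst. The test was repeated without 1 lane at a time. The 2 control CD40 lanes are 1 pool of the same 2 mice, so no fit left out a control CD40 mouse. In these fits the calls of C1qtnf6 and Pdcd1 held in 8 of 8, that of Rab38 in 2 of 7, and those of Gzmc and Serpinb9b in 3 of 8. Those of the other 5 genes of control tumours held in 6 or 7 of 8. Those of the genes of B2m-null tumours held in 4 to 7 of 8. These include the fits without a control lane, in which the B2m-null groups stayed whole. Without B2m-null CD40 pool 2, only the calls of Klrg1, Gm36723 and Napsa held among the genes of B2m-null tumours. Over the fits without 1 lane the difference ranged from -9.62 to -2.90 for Syngr1, -4.90 to -2.16 for Igkc and -8.45 to -5.30 for Ptgds. It ranged from -9.68 to -1.68 for Slamf6 and from 1.47 to 3.60 for Napsa. After thinning to 1000 UMIs the Napsa difference was 1.07 by edgeR (adjusted p = 0.789).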

How the results depend on the processing

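Without a filter on low counts 294 genes were called for CD40 in control tumours, 334 in B2m-null tumours, 9 by genotype with isotype, 60 for genotype under CD40 and 90 for the difference of the effects. With the pool as the unit the counts were 82, 65, 0, 0 and 0 in that order, and 10 for the NK minus CD8 T difference by genotype under isotype. The control CD40 group was then 1 sample, assumed to vary like the other groups, as it was when either of its mice was left out. The stricter gate called 110, 18, 1, 18 and 23. Thinning to 1000 UMIs gave 83 and 105 for the CD40 comparisons and 1 for genotype under isotype, with 9 (CD40, B2m-null) and 3 (genotype, isotype) for NK minus CD8 T. DESeq2 called 10, 65 and 103 and limma-voom 1, 28 and 82 for genotype under isotype, genotype under CD40 and the difference. RLE scaling called 1 gene for genotype under isotype. The gate added after seeing the data called 2 for genotype under isotype and 102 for genotype under CD40. Same-numbered samples did not deviate together (correlations -0.145, 0.154 and -0.0138), and with a replicate block 2 genes were called for genotype under isotype and 307 for CD40 in B2m-null tumours.

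Leaving out 1 mouse or lane at a time gave 27 to 252 genes for CD40 in control tumours (27 without control isotype lane 1, 38 and 53 without the first and second control CD40 mouse) and 89 to 220 in B2m-null tumours (89 without isotype lane 1, 101 without CD40 lane 2). It gave 0 to 7 for genotype under isotype, 0 to 58 for genotype under CD40 and 3 to 66 for the difference. NK minus CD8 T counts ranged from 43 to 250 for CD40 in control tumours, 10 to 36 in B2m-null tumours and 0 to 8 for genotype. The NK minus CD8 T fits left out lanes only. Without B2m-null isotype lane 2 the NK minus CD8 T values of Klhl6 and Lyst turned to 0.28 and 0.53, the upper ends of ranges that began at -2.45 and -1.86. The difference in NK share ranged from -2.02 to 0.551 points for CD40 in B2m-null tumours and from -0.726 to 1.09 points for genotype under CD40. The cycling difference ranged from -4.58 to 4.11 points (CD40, control), -10.9 to 16.9 (CD40, B2m-null), -4.22 to 5.78 (genotype, isotype) and -11.6 to 16.3 (genotype, CD40). For Ly49 genes per cell the ranges were -0.142 to 0.407 (CD40, control), -0.354 to 0.231 (genotype, isotype) and -0.161 to 0.389 (genotype, CD40). The cycling difference for genotype under isotype also changed sign at full depth (8.30 points), with at least 4 UMIs (1.07) and with a replicate block (0.564), and that for CD40 in control tumours with at least 4 UMIs (0.570). The Ly49 difference for CD40 in control tumours was -0.173 at full depth, -0.0213 in the stricter gate and -0.0914 in the added gate, and that for genotype under isotype was -0.0703 with a replicate block. None of these differences in shares or Ly49 number passed a test, and the cause of each move was not tested. The main tests of cycling and Ly49 number could not have passed with these numbers of mice. Klrg1, Gzma, Prf1, Nkg7 and H2-Q7 were called for CD40 in B2m-null tumours under all 33 alternatives, and Klrg1, Ly6c2, Rgs1 and S100a6 for CD40 in control tumours under all 32. With the pool as the unit or without either control CD40 mouse, that CD40 group was 1 sample and the other groups gave the spread.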
